A study of Mus musculus with 6 samples.

Results

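Mitochondrial ribosomal protein genes were higher in granulocyte-monocyte progenitors (GMPs) of vehicle-treated 4T1-bearing mice (Veh-GMPs) than in GMPs of non-tumor-bearing mice (NTB-GMPs), where 31 of 78 rose and 0 fell (6.63% of all genes rose). That count was 19 when the samples were scaled by library size alone and 11 when 1 of the NTB mice, replicate 3, was left out. The 6.63% does not apply to those 2 fits, and their shares of all genes are not given here. In GMPs of brequinar-treated 4T1-bearing mice (BRQ-GMPs), 17 of the 78 fell against Veh-GMPs (7.37% of all genes did) with TMM scaling factors. With library size alone that count was 3, and more of the 78 were called higher than lower. Their median then turned above zero but stayed below that of all genes. The genes are those of the 32285 in the count matrices whose symbol starts with Mrpl or Mrps followed by a number, with pseudogenes left out. Of the 78, 49 carry an Mrpl and 29 an Mrps symbol. By the position of the protein in the ribosome, 51 belong to the large subunit, among them Mrps18a and Mrps30 despite their names, and 26 to the small subunit. The last, Mrps36, is named as a ribosomal protein but is known as a subunit of the 2-oxoglutarate dehydrogenase complex.

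The mitochondrial ribosome sits in the mitochondrial matrix and translates the few mRNAs that the mitochondrial genome encodes, all of them for subunits of the respiratory chain and the ATP synthase. Its RNAs come from mitochondrial DNA, whereas its proteins are encoded in the nucleus, made in the cytoplasm and imported. Of the proteins, 44 are kept from the bacterial ancestor, 31 are specific to mitochondria and 3 were not assigned here. Dihydroorotate dehydrogenase, the enzyme of pyrimidine synthesis that brequinar inhibits, is itself located in the inner mitochondrial membrane and passes electrons to the respiratory chain.

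Bone marrow was taken from 9 female BALB/c mice aged 10 weeks and enriched for c-Kit+ cells on magnetic beads. There were 3 non-tumor-bearing (NTB) mice, 3 mice with 4T1 mammary tumors given the vehicle DPBS and 3 mice with 4T1 tumors given brequinar (BRQ) at 10 mg/kg. Both agents were injected daily into the peritoneum for 2 weeks from the time tumors could be measured. 4T1 is a single mouse mammary tumor cell line, implanted in the mammary gland of mice of its own strain. NTB mice had no treatment, so the tumor and the daily injections cannot be told apart between NTB and vehicle mice. Each of 3 pools was 1 lane of single-cell libraries and held 1 mouse of each group, labeled with a hashtag antibody, and a replicate number is the number of the pool.

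The pools held 13750, 11441 and 14297 barcodes, of which 5905, 4010 and 6051 passed the filters and were assigned to 1 mouse. HTODemux, which reads the hashtags, left 39.83%, 52.19% and 33.1% of barcodes without a tag. Between pools, 127 barcodes occurred more than once. A cell counted as a GMP where its Ms4a3 level, ln(1 + UMIs per 10000), was over 3. Ms4a3 is a marker of GMPs, and a UMI is 1 counted mRNA molecule. NTB mice had 88 to 177 GMPs each, vehicle mice 95 to 1017 and BRQ mice 653 to 806, and their summed counts ran from 998154 to 16074010 UMIs. Of the GMPs, 93.74% lay in clusters called GMP-like by their markers, and 3733 cells lay within 0.25 of the limit. The other classes were named from markers and carry the ending -like.

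The genes lie on 17 chromosomes, 11 of them on chromosome 11 and 8 on chromosome 17 (GENCODE M21, GRCm38). In 18 of the 78 (23.1%), the start faces that of another protein-coding gene on the opposite strand within 1000 bases, against 6.8% of 21951 protein-coding genes. Mrps12 faces Sars2, which encodes a mitochondrial seryl-tRNA synthetase, and Mrps18b, Mrpl51 and Mrpl49 face Ppp1r10, Ncapd2 and Fau. The genes on which the results turn include Mrps12 (ENSMUSG00000045948, chr7:28739641-28741820, minus strand), Mrpl20 (ENSMUSG00000029066, chr4:155802878-155809975, plus strand), Mrpl42 (ENSMUSG00000062981, chr10:95480805-95501940, minus strand), Mrpl24 (ENSMUSG00000019710, chr3:87919506-87923672, plus strand) and Mrpl33 (ENSMUSG00000106918, chr5:31596935-31664384, plus strand). Another gene overlaps 13 of the members on the same strand, among them Mrpl33, Mrps24, Mrps34 and Mrpl51, so that reads in the shared stretch could belong to either gene.

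The 250 bases before the start were available for 69 of the 78 genes (RefSeq, GRCm38.p6), in 75 windows. Both strands were searched for GCGCANGCG, the core of sites bound by NRF1, a known regulator of nuclear genes for mitochondrial proteins, and it was found in 17.3% of member windows, against 5.2% of all 32851 windows. CCGGAAG, an ETS-type motif as bound by GABPA (NRF2), was in 24% of member windows and in 6.9% of all. The member windows were richer in G and C, at a median of 58.4% against 52.4%, and among windows with a GC content of at least 52.6% the shares were 9.5% and 11.2%. AAGATGG, the YY1-type motif, was in 8.0% against 4.5% of all windows and 4.1% of the GC-rich ones. The E-box CACGTG was in 9.3% (7 windows of 5 genes, 3 of the windows overlapping ones of Mrpl2), against 6.0% and 8.2%. CCAAT was in 37.3% against 33.8% and 31.5%. TATAAA was in 6.7%, below the 12.4% of all windows and above the 4.0% of the GC-rich ones. An ETS-type match can share its last 3 letters, AAG, with a YY1-type match. Binding was not measured, and 33 of the matched genes held none of NRF1-type, ETS-type, E-box or YY1-type motifs in this window. The windows of 4 genes on which results below turn are given 5′ to 3′ on the strand of the gene, with motif matches in capitals. Mrpl17 (chr7:105811088-105811337, minus strand) holds an ETS-type match starting 237 bases and NRF1-type matches starting 49 and 11 bases before the start. Mrpl12 (chr11:120484387-120484636, plus strand) and Mrps18b (chr17:35916441-35916690, minus strand) hold an NRF1-type match at 80 and 224 bases. Mrpl52 (chr14:54426659-54426908, plus strand) holds a YY1-type match at 91 and an ETS-type match at 47 bases.
Mrpl17: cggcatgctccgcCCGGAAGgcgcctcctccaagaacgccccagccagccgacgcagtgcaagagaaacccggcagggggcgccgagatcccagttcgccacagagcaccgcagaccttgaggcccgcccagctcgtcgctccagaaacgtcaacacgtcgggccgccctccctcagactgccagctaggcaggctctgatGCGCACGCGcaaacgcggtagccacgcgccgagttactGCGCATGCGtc
Mrpl12: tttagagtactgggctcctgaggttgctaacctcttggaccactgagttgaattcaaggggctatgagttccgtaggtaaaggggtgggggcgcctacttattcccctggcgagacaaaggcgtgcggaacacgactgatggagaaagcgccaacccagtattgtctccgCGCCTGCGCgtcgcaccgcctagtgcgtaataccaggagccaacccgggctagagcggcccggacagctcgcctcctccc
Mrps18b: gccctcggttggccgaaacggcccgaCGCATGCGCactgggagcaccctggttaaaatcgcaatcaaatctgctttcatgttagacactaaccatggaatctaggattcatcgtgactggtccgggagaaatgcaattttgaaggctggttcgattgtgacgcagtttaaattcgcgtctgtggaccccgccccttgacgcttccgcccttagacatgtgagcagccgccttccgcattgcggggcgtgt
Mrpl52: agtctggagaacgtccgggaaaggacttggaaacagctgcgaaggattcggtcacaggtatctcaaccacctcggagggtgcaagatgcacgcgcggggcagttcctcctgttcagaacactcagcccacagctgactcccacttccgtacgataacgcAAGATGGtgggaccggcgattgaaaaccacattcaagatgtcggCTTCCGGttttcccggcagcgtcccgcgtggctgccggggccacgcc

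Summed over the 78 genes, the transcripts made up a larger share of the mRNA of progenitors than of neutrophil-like cells. The median over mice was 84.5 UMIs per 10000 in GMPs, 83.3 in erythroid/MEP-like cells, 81.8 in monocyte/MDP-like cells and 64.9 in HSC/MPP-like cells. The order of the first 2 differed by group. In NTB, vehicle and BRQ mice the means were 82.3, 80.0 and 88.4 in erythroid/MEP-like cells (8 mice) and 72.4, 85.8 and 87.7 in GMPs (9 mice). It was 31.9 in neutrophil-like cells and lay between 48.2 and 68.6 in the megakaryocyte-, basophil/mast/eosinophil-, lymphoid progenitor- and macrophage-like classes. For GMPs from pools 1, 2 and 3, the NTB share was 74.74, 72.67 and 69.77, the vehicle share 86.42, 87.5 and 83.55 and the BRQ share 86.81, 84.53 and 91.81. Thus every NTB mouse lay below every tumor-bearing mouse, while vehicle and BRQ mice overlapped on this scale, which uses no scaling factor. The same order held in monocyte/MDP-like cells, at 67.66 to 75.71 in NTB, 81.84 to 88.89 in vehicle and 78.6 to 88.73 in BRQ mice. In neutrophil-like cells the 3 groups overlapped, at 31.38 to 34.82, 29.31 to 36.9 and 29.29 to 37.85. The mix of clusters in this class differed between groups. In cluster 7, led by Camp and Ngp, NTB mice were at 36.11 to 40.7 and BRQ mice at 48.21 to 61.29. Vehicle replicates 1 and 3 were at 47.14 and 47.8 there (85 and 14 cells). NTB mice were also lowest in cluster 9 among mice with values, but they overlapped BRQ mice in cluster 1 and vehicle mice in cluster 4.

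**Figure D1:**
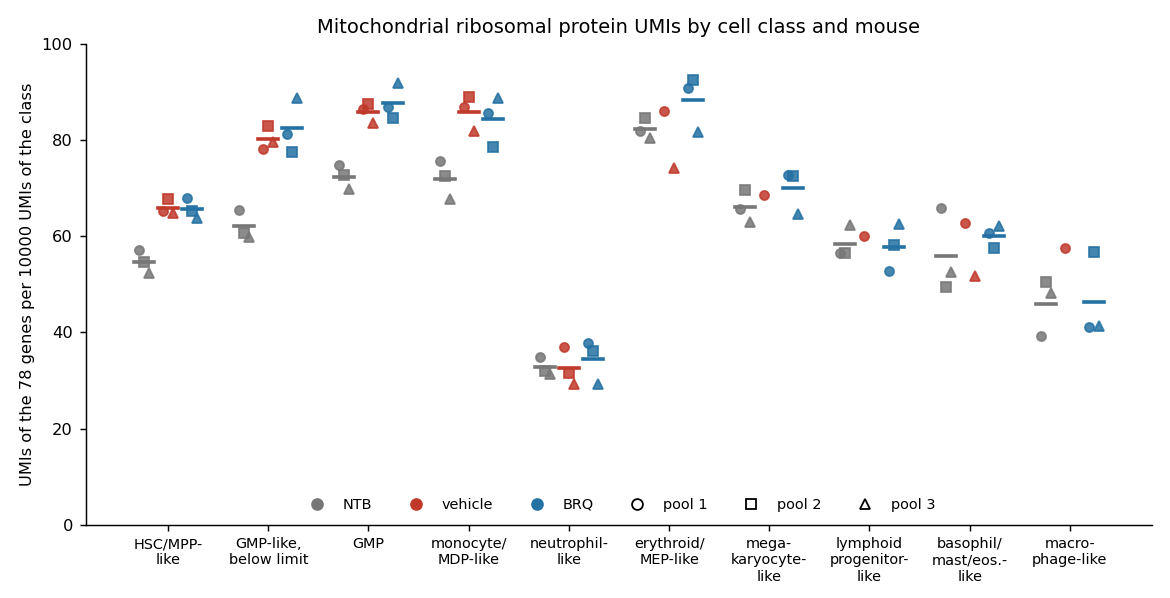
UMIs of the 78 genes per 10000 UMIs of a class (vertical axis) in each cell class (horizontal axis), 1 point per mouse with color for the group and shape for the pool, and a bar at the group mean. GMPs sit at 69.77 to 91.81 and neutrophil-like cells at 29.29 to 37.85, and in GMPs the NTB mice lie below all others.

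The first comparison asked what the tumor was accompanied by in GMPs. Of the 78 genes, 73 were higher and 5 lower in Veh-GMPs than in NTB-GMPs, with a median log2 fold change of 0.33, against -0.01 over all 10331 genes tested. edgeR called 31 of the 78 higher (39.7%, against 6.63% of all genes tested) and 0 lower, and 50 were at an unadjusted p under 0.05. DESeq2 called 22, all higher. As CPM, the count of a gene relative to the TMM-scaled total of its sample, the groups did not overlap in 42 of the 78, against 28.4% of all genes. With the pool as a block, 40 were called, including all 31. The 6.63% is from the edgeR fit without the block, and no such share is given here for DESeq2 or the block. Every pool showed the difference, with medians of 0.30, 0.31 and 0.34 in pools 1, 2 and 3.

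Mrps18b, a small subunit protein and one of 3 paralogs related to bacterial S18, had the largest change. Over pools 1, 2 and 3 its level was 35.97, 22.58 and 24.07 CPM in NTB-GMPs, 49.19, 43.25 and 37.66 in Veh-GMPs and 34.51, 33.90 and 34.32 in BRQ-GMPs. The lowest vehicle mouse was thus above the highest NTB mouse, and the log2 fold change was 0.75 (SE 0.16, adjusted p = 0.00345). Mrps12, which lies at the decoding site, was at 61.05, 79.67 and 58.25 CPM in NTB-GMPs, at 104.8, 105.9 and 105.6 in Veh-GMPs and at 74.39, 81.01 and 75.89 in BRQ-GMPs. The vehicle mice lay within 2 CPM of each other and above all other mice, with a log2 fold change of 0.67 over NTB (SE 0.11, adjusted p = 0.000443). Mrpl20, an RNA-binding protein of the large subunit, was at 210.4, 232.1 and 215.7 CPM in NTB-GMPs, at 364.7, 356.6 and 321.9 in Veh-GMPs and at 280.1, 240.6 and 273.8 in BRQ-GMPs. Its 3 groups did not overlap, and its log2 fold change over NTB was 0.66 (SE 0.09, adjusted p = 5.9e-05).

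Mrpl12 forms the stalk of the large subunit and is known also to bind mitochondrial RNA polymerase. It was at 152.6, 150.6 and 122.3 CPM in NTB-GMPs, at 223.9, 231.3 and 189.9 in Veh-GMPs and at 166.0, 159.6 and 177.6 in BRQ-GMPs. All vehicle mice lay above all others, and the log2 fold change over NTB was 0.61 (SE 0.10, adjusted p = 0.000516). The other large increases were in Mrpl38 (0.55, SE 0.16) and Mrpl35 (0.53, SE 0.10). The smallest called were in Mrpl51, Mrps25, Mrpl30, Mrpl41, Mrps15 and Mrps26, at 0.31 to 0.34. The 5 genes below zero were Mrpl19, Mrpl23, Mrpl24, Mrps33 and Mrpl33, at -0.18 to -0.02, and their adjusted p was 0.244 to 0.949.

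How many genes were called depended on single NTB and vehicle mice, on the scaling (19 with library size alone) and on which cells were taken as GMPs. Of the 31, 10 were called without each of the 9 mice in turn (Mrps12, Mrpl20, Mrpl12, Mrpl35, Mrpl53, Mrps24, Mrpl18, Mrpl17, Mrps5 and Mrpl34), and the count was 11 without NTB replicate 3, 14 without NTB replicate 2 and 13 without vehicle replicate 1. A GMP held a median of 10828.5 to 11581 UMIs in NTB, 14737 to 17966 in vehicle and 12168.5 to 15795 in BRQ mice. The members' median was 0.34 among GMPs at or below the median UMI count and 0.26 among those above it, and 0.24 among GMPs of the largest GMP-like cluster. With the upper limit of 7500 applied to UMIs and not to detected genes, 53 of the genes could be tested, with a median of 0.24 and 0 called. Vehicle replicates 2 and 3 then held 8 and 16 GMPs, so the 0 calls cannot show that the difference was lost. Of 13 neutrophil markers, all with counts, the summed level in GMPs was 47247 to 50668 CPM in NTB, 34706 to 38286 in vehicle and 27352 to 38946 in BRQ mice, and its part in the result was not tested.

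**Figure D2:**
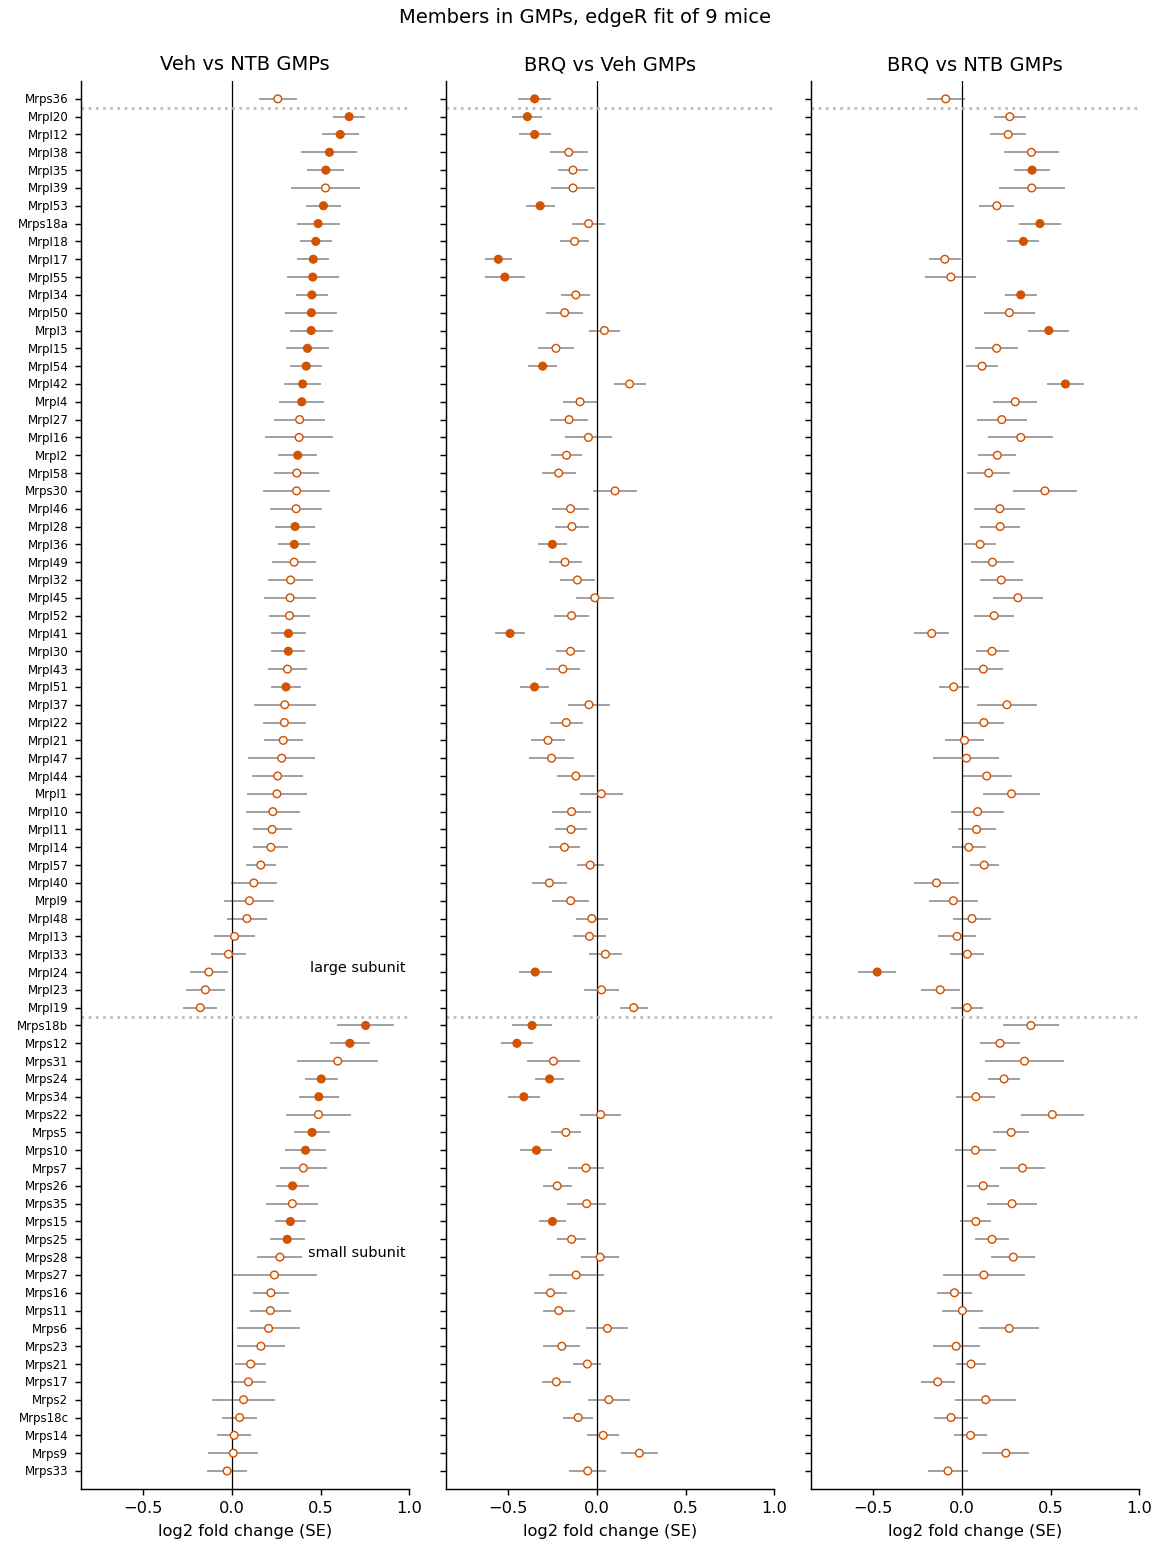
Log2 fold change with its standard error (horizontal axis) of each of the 78 genes in the 3 GMP comparisons (panels), with filled points where the edgeR adjusted p was under 0.05. The left panel shows 31 filled points, all right of zero, and the middle panel 17, all left of zero.

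BRQ-GMPs and Veh-GMPs both came from mice with tumors, and their comparison addresses the drug. Here 65 of the 78 genes were lower and 13 higher in BRQ-GMPs, with a median log2 fold change of -0.15, against 0.00 over all genes. edgeR called 17 lower (21.8%, against 7.37% of all genes tested) and 0 higher, with 29 at an unadjusted p under 0.05, and DESeq2 called 16 lower. The groups did not overlap in 34 of the 78, against 30.7% of all genes. The direction of the list depended on the scaling: TMM factors were 1.05 to 1.15 in BRQ-GMPs and 0.93 to 0.97 in Veh-GMPs. With library size alone, the median of all genes was 0.20 and that of the members 0.05, so that the members lay below the other genes under both scalings and below zero only with TMM. On that scale edgeR called Mrpl17, Mrpl55 and Mrpl41 lower and Mrps9, Mrpl19, Mrpl42, Mrpl33 and Mrps14 higher. The 17 genes called with TMM were all below zero with library size alone, at -0.36 to -0.06. Medians within pools 1, 2 and 3 were -0.21, -0.14 and -0.09 after TMM scaling.

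Mrpl17, which lies at the exit of the tunnel for the growing peptide, had the largest decrease. It was at 121.0, 114.2 and 104.0 CPM in NTB-GMPs, at 152.5, 153.6 and 155.5 in Veh-GMPs and at 106.4, 103.1 and 104.4 in BRQ-GMPs. The vehicle mice stood clear of all others, and the log2 fold change of BRQ against vehicle was -0.56 (SE 0.08, adjusted p = 3.8e-05) with TMM and -0.36 with library size alone. Mrpl55 (-0.52, SE 0.11), Mrpl41 (-0.49, SE 0.08), Mrps12 (-0.45, SE 0.09), Mrps34 (-0.41, SE 0.09) and Mrpl20 (-0.39, SE 0.08) followed. Mrps18b fell by 0.37 (SE 0.11, adjusted p = 0.0301), a call that DESeq2 did not make (adjusted p = 0.105), and Mrpl12 fell by 0.35 (SE 0.09, adjusted p = 0.011). Mrps36 was at 109.4, 107.2 and 91.90 CPM in BRQ-GMPs and at 133.5, 132.2 and 127.6 in Veh-GMPs, a decrease of 0.35 (SE 0.09, adjusted p = 0.0121). The smallest called were in Mrps10, Mrpl53, Mrpl54, Mrps24, Mrps15 and Mrpl36, at -0.34 to -0.25.

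Of the 17 calls, 6 were made without each mouse in turn (Mrpl17, Mrpl55, Mrpl41, Mrps12, Mrpl20 and Mrpl51), and the count was 6 without vehicle replicate 1. This comparison and that of vehicle with NTB use the same vehicle mice. With the pool as a block 25 were called lower and Mrpl19 higher, with no share of all genes from that fit given here. The GMPs of BRQ mice came from cluster 2, the GMP-like cluster led by Fkbp11, more often than others, at 25.9% to 67.1% against 14.7% to 17.3% in vehicle and 3.4% to 8.5% in NTB mice. Within the largest GMP-like cluster the members' median was -0.12, with 10 called lower. Markers of other classes were at higher summed levels in BRQ-GMPs than in Veh-GMPs: 100.7 to 123.3 against 56 to 67.7 CPM for 11 HSC/MPP markers, 99.9 to 151.6 against 54.9 to 68.9 for 8 monocyte/MDP markers and 185.5 to 201.9 against 86.1 to 113.5 for 11 basophil/mast/eosinophil markers. In NTB-GMPs these levels were 63.1 to 70.6, 55.1 to 71.5 and 123.2 to 179.3. The 7 macrophage markers were at 368.8 to 388.6 in NTB-GMPs, 238.1 to 246.4 in Veh-GMPs and 168.9 to 294.9 in BRQ-GMPs. The 9 dendritic cell markers were at 59 to 75.3, 65 to 71.4 and 74.2 to 95.5 in the same order. Every marker of these 5 lists had counts. The lists for erythroid, megakaryocyte, lymphoid, B, T/NK and stromal cells each summed to at most 58.0 CPM in any mouse. Of 7 B cell markers 6 had counts, and Ms4a1 was at 0. Of 7 T/NK cell markers 4 had counts, and Trbc2, Cd3e and Gzma were at 0. The part of these lists in the results was not tested.

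The third comparison set BRQ-GMPs against NTB-GMPs. Here 63 of the 78 genes were higher, with a median log2 fold change of 0.16, against 0.00 over all genes. edgeR called 6 higher (7.69%, against 2.56% of all genes tested) and Mrpl24 lower (1.28%, against 3.46%). Groups did not overlap in 29 of the 78, against 25.9% of all genes. Mrpl42, a mitochondria-specific protein of the large subunit, was at 123.2, 111.0 and 117.5 CPM in NTB-GMPs, at 161.0, 165.5 and 137.7 in Veh-GMPs and at 172.6, 157.1 and 194.2 in BRQ-GMPs. All BRQ mice lay above all NTB mice, with a log2 fold change of 0.58 (SE 0.10, adjusted p = 0.00172). Mrpl24, a large subunit protein kept from bacteria, was at 91.57, 103.5 and 83.76 CPM in NTB-GMPs, at 88.16, 79.60 and 83.29 in Veh-GMPs and at 66.92, 72.56 and 60.36 in BRQ-GMPs. The BRQ mice were the lowest of the 9, and the log2 fold change was -0.48 against NTB (SE 0.11, adjusted p = 0.00778) and -0.35 against vehicle (SE 0.09, adjusted p = 0.0124). The other increases were in Mrpl3 (0.49), Mrps18a (0.44), Mrpl35 (0.40), Mrpl18 (0.35) and Mrpl34 (0.33). With the pool as a block 12 were called higher, Mrpl12 among them (0.26, adjusted p = 0.0403), with no share of all genes from that fit given here. With library size alone 28 were called higher, where 1102 of all 10331 genes were. The members' median there was 0.32 and that of all genes 0.16. Without NTB replicate 2 or NTB replicate 3 only Mrpl42 was called higher, and without BRQ replicate 1 the count was 3. Of the 7 calls in either direction, Mrpl42 was the 1 made without each mouse in turn, and that of Mrpl24 was lost without NTB replicate 2 (adjusted p = 0.111).

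Both subunits and both evolutionary classes contributed. In Veh-GMPs against NTB-GMPs, 9 of 26 genes of the small subunit and 22 of 51 of the large subunit rose, with medians of 0.29 and 0.35. Of the genes kept from bacteria 18 of 44 rose, and of the mitochondria-specific ones 12 of 31. Of all genes tested, 6.63% rose in this comparison. In BRQ-GMPs against Veh-GMPs, 6 genes of the small and 10 of the large subunit fell with TMM scaling, besides Mrps36, against 7.37% of all genes tested. The difference between these classes was not tested. The 3 paralogs of S18 did not share 1 pattern. Mrps18a, of the large subunit, rose in Veh-GMPs (0.49, SE 0.12, adjusted p = 0.0109) and was not called between BRQ-GMPs and Veh-GMPs (-0.05, SE 0.09). Mrps18c had a log2 fold change of 0.04 (SE 0.10) between Veh-GMPs and NTB-GMPs and of -0.11 (SE 0.09) between BRQ-GMPs and Veh-GMPs, both not called.

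Several further genes were not called between Veh-GMPs and NTB-GMPs. Mrpl58, a peptidyl-tRNA hydrolase that rescues stalled ribosomes, had a log2 fold change of 0.37 (SE 0.13, adjusted p = 0.0639, and 0.033 with the pool as a block). Mrps36 was at 0.26 (SE 0.11, adjusted p = 0.129, and 0.042 with the block). Mrps30 was at 0.37 (SE 0.19), Mrpl10 at 0.23 (SE 0.15) and Mrpl11 at 0.23 (SE 0.11), where Mrpl10 is the protein to which the Mrpl12 stalk attaches.

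Of 5 ribosomal subunits without an Mrp name, 4 rose in Veh-GMPs over NTB-GMPs, against 6.63% of all genes tested: Dap3 by 0.42 (SE 0.13), Gadd45gip1 by 0.41 (SE 0.12), Aurkaip1 by 0.40 (SE 0.10) and Chchd1 by 0.28 (SE 0.09). The last, Ptcd3, was at 0.22 (SE 0.16, adjusted p = 0.398). Aurkaip1, a small subunit protein, fell in BRQ-GMPs against Veh-GMPs by 0.51 (SE 0.09, adjusted p = 0.000304), from 241.6 CPM (SD 10.2, n = 3) to 170.4 (SD 11.9, n = 3). Among 24 factors that assemble the ribosome 1 rose in Veh-GMPs, against the same 6.63%. This was Malsu1, which keeps the immature large subunit from joining, and it went from 26.4 CPM (SD 4.46) to 44.5 (SD 4.70), a log2 fold change of 0.77 (SE 0.15, adjusted p = 0.00128). Malsu1 (-0.34) and Mpv17l2 (-0.60, SE 0.11), another assembly factor, fell in BRQ-GMPs, against 7.37% of all genes, and with library size alone the fall of Malsu1 was not called. Of 15 translation factors 3 rose in Veh-GMPs, against 6.63% of all genes: the elongation factors Tufm (0.56) and Tsfm (0.52) and the mRNA-binding Slirp (0.45). Mtfmt, which formylates the initiator tRNA, was at 7.63 CPM (SD 0.94) in NTB-GMPs, 9.53 (SD 1.20) in Veh-GMPs and 13.7 (SD 0.37) in BRQ-GMPs, and it was called higher in BRQ-GMPs than in both others (0.45 and 0.80). Of 9 genes of mitochondrial transcription and the nucleoid, edgeR called 0 for vehicle against NTB, with 2 at an unadjusted p under 0.05, and Ssbp1, which binds single-stranded mitochondrial DNA, fell in BRQ-GMPs against Veh-GMPs by 0.32 (SE 0.10) with TMM and was not called with library size alone.

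The mRNAs that the mitochondrial ribosome translates were not called higher in Veh-GMPs. Of 13 mitochondrially encoded mRNAs, 12 were lower in Veh-GMPs than in NTB-GMPs, with a median of -0.18, 0 calls by edgeR and 3 at an unadjusted p under 0.05, and with library size alone 2 were called lower, as were 514 of all 10331 genes tested in the GMP class. In BRQ-GMPs against Veh-GMPs, 3 fell after TMM scaling (against 7.37% of all genes): mt-Nd4l (-0.42), mt-Nd3 (-0.35) and mt-Nd4 (-0.28), all subunits of complex I. The median of the 13 was -0.19 with TMM and 0.00 with library size alone, where 0 were called and 1 was at an unadjusted p under 0.05. In BRQ-GMPs against NTB-GMPs 6 fell, from mt-Nd3 at -0.53 (SE 0.10) to mt-Nd5 at -0.31 (SE 0.09), with a median of -0.40 (against 3.46% of all genes), and 3 with library size alone, where 217 of all genes were called lower. The 80 cytoplasmic ribosomal protein genes had a median of 0.00 between Veh-GMPs and NTB-GMPs with 3 called higher (against 6.63%). Between BRQ-GMPs and Veh-GMPs all 80 were lower, 64 were called (against 7.37%), and the median was -0.40. With library size alone it was -0.22 and 43 were called, where 259 of all genes were called lower. They are 22.56% to 29.3% of the UMIs of GMPs.

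**Figure D3:**
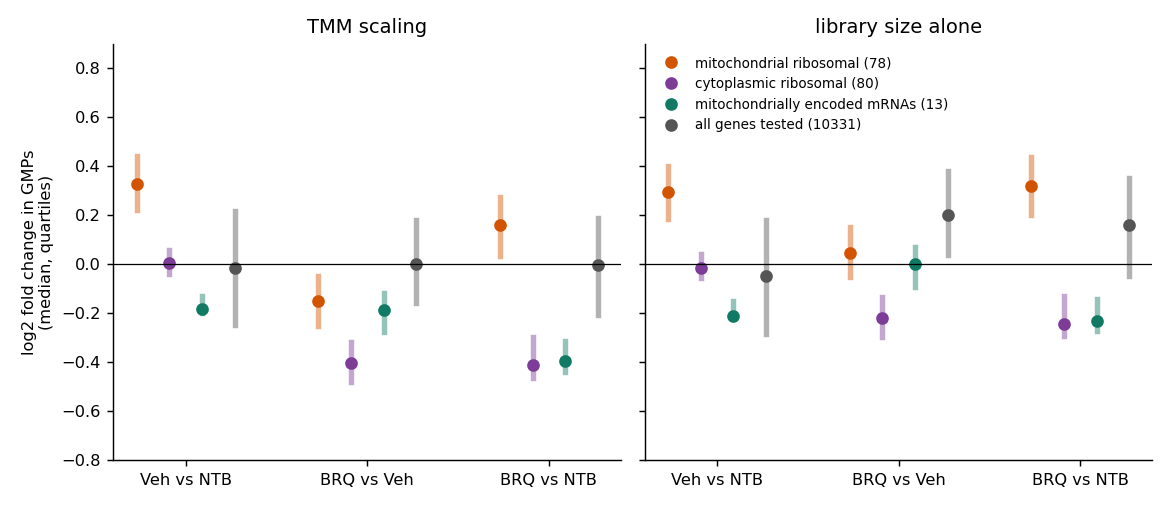
Median (points) and quartiles (bars) of the log2 fold changes in GMPs of 78 mitochondrial ribosomal, 80 cytoplasmic ribosomal and 13 mitochondrially encoded genes and of all 10331 genes tested, by comparison (horizontal axis), with TMM scaling on the left and library size alone on the right. The mitochondrial ribosomal median between BRQ and vehicle is -0.15 on the left and 0.05 on the right, where that of all genes is 0.20.

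Cells of GMP-like clusters that lay below the Ms4a3 limit came from the same mice and lanes as the GMPs. Of the 78 genes, 47 rose in vehicle over NTB mice (60.3%, against 11.8% of 10670 genes tested), with a median of 0.40. Mrps27 (0.93, SE 0.19) and Mrpl12 (0.83, SE 0.10) changed most. Between BRQ and vehicle 7 fell (8.97%, against 3.05%), led by Mrpl55 (-0.47) and Mrpl17 (-0.46). This fall depended on the scaling: with library size alone 0 were called lower by edgeR, with 9 of the 78 at an unadjusted p under 0.05. Mrpl19 and Mrpl42 were then called higher, and the members' median went from -0.10 to 0.06, where that of all genes was 0.16. Without scaling factors the 78 genes made up 78.1, 83.04 and 79.54 UMIs per 10000 in vehicle and 81.19, 77.43 and 88.69 in BRQ mice, which overlapped. Between BRQ and NTB 29 rose (37.2%, against 10.2%), led by Mrps27 (0.84) and Mrps6 (0.74). Mrps27 was at 10.7, 7.79 and 8.52 CPM in NTB mice, at 16.2, 18.5 and 16.0 in vehicle mice, and at 13.4, 15.6 and 16.8 with BRQ. NTB mice lay below all tumor-bearing mice. In monocyte/MDP-like cells 10 rose in vehicle over NTB mice (12.8%, against 2.22% of 9425 genes), with a median of 0.32, led by Mrpl49 (0.70, SE 0.15) and Mrps34 (0.64, SE 0.14). Between BRQ and vehicle 3 fell (3.85%, against 2.91%): Mrpl9 (-0.38), Mrpl20 (-0.36) and Mrpl12 (-0.33), and with library size alone 0 were, with 8 at an unadjusted p under 0.05 and a median of -0.03 against 0.12 over all genes. Between BRQ and NTB only Mrpl42 was called (0.47, SE 0.11, 1.28% of members against 1.45% of all genes). Without NTB replicate 3, 1 gene was called between vehicle and NTB in these cells, and 3 or 4 were without NTB replicate 2, vehicle replicate 1 or vehicle replicate 2. None of the 3 that fell was called without vehicle replicate 1, vehicle replicate 2 or BRQ replicate 2, and Mrpl42 was lost without NTB replicate 3, BRQ replicate 1 or BRQ replicate 3. Below the Ms4a3 limit the increases over NTB numbered 27 in vehicle and 15 in BRQ mice without NTB replicate 3, and 2 to 4 genes fell without NTB replicate 2, any of the vehicle mice, BRQ replicate 1 or BRQ replicate 2.

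Few of the genes were called in neutrophil-like cells. Of 75 members tested (Mrps2, Mrps6 and Mrps27 had too few counts), 53 were lower in vehicle than in NTB mice, with a median of -0.18, against -0.05 over all genes. edgeR called 4 higher (5.33%, against 9.77% of 8703 genes tested): Mrpl52, Mrpl33, Mrpl10 and Mrpl14. With the pool as a block, these 4 were called higher and Mrpl13, Mrpl45, Mrps26 and Mrpl51 lower. The count was 1 without NTB replicate 3 or vehicle replicate 3 and 2 without NTB replicate 2. Between BRQ and NTB, Mrpl52 and Mrpl33 were called (2.67%, against 5.48%), and 0 were without NTB replicate 2 or NTB replicate 3. Between BRQ and vehicle 0 of the members were called by edgeR or by DESeq2, with 4 at an unadjusted p under 0.05, and only 3 genes of the whole table (0.0345%). The mix of cells shifted: cluster 1, of low-UMI cells led by Wfdc17 and Il1b, held 6.2% to 8.9% of neutrophil-like cells in NTB, 63.4% to 88.8% in vehicle and 45.4% to 79.9% in BRQ mice. A neutrophil-like cell held a median of 6000 to 6695 UMIs in NTB, 1599 to 2188 in vehicle and 2647.5 to 4330.5 in BRQ mice. Within cluster 1, where NTB mice held 10, 39 and 61 cells, the median of the 29 members tested between vehicle and NTB was 0.22. Over the other neutrophil-like clusters the median of 75 members was 0.25, so the sign of -0.18 turned in both. Leaving out vehicle replicate 1 gave -0.50 and leaving out vehicle replicate 3 gave -0.02. The test of the difference itself, the vehicle-NTB change in neutrophil-like cells minus that in GMPs, called 5 of the 78 genes in either direction (against 9.88% of 9775 genes), with the difference above zero for Mrpl52 and Mrpl33 and below zero for Mrps26, Mrps35 and Mrpl51, and 23 were at an unadjusted p under 0.05. The same test for BRQ against NTB called 2 of the 78 (against 3.35%), and for monocyte/MDP-like cells minus GMPs it called Mrpl24 alone for BRQ against NTB (against 1.57% of 10606 genes).

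Mrpl52, a mitochondria-specific protein of the large subunit (ENSMUSG00000010406), had the largest change in neutrophil-like cells. It was at 38.05, 24.21 and 27.13 CPM in NTB mice, at 90.47, 67.34 and 71.81 in vehicle mice, and at 61.96, 57.11 and 93.97 with BRQ. All tumor-bearing mice lay above all NTB mice, with log2 fold changes of 1.45 in vehicle (SE 0.25, adjusted p = 0.00315) and 1.31 in BRQ mice (SE 0.24, adjusted p = 0.0101). In cluster 4, led by Chil3, Ltf and Camp, it was at 20.2, 17.3 and 20.3 CPM without TMM factors in NTB, 71.2 and 69.2 in vehicle mice and 58.4 and 48.3 in those BRQ mice that had enough cells. In cluster 1 it was at 43.4 and 45.4 in NTB, 44.7 to 57.1 in vehicle and 35.6 to 41.6 in BRQ mice, so that all BRQ mice lay below the NTB and vehicle mice there, unlike in the class as a whole. The 2 NTB values rest on 6 and 3 UMIs. Over the clusters other than cluster 1, its log2 fold change between vehicle and NTB was 2.01. In GMPs it was at 105.2 to 120.3 CPM without TMM factors in NTB, 130.7 to 146.2 in vehicle and 119.7 to 182.1 in BRQ mice and was not called. Its highest level was in erythroid/MEP-like cells, at 538.1 to 723.4.

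Mrpl33, kept from bacteria, was at 338.7, 341.5 and 303.6 CPM in neutrophil-like cells of NTB mice, at 479.4, 552.2 and 618.1 in vehicle mice and at 496.0, 477.1 and 578.3 with BRQ. All tumor-bearing mice lay above all NTB mice, with log2 fold changes of 0.75 in vehicle (SE 0.17, adjusted p = 0.0117) and 0.66 in BRQ mice (SE 0.17, adjusted p = 0.0342). Its level differed between clusters: in cluster 1 it was at 650.6 to 906.1 CPM without TMM factors and in cluster 4 at 284.2 to 440.1. Mrpl10 was called at 0.69 (SE 0.21, adjusted p = 0.0451) and Mrpl14 at 0.62 (SE 0.16, adjusted p = 0.0227). The gene Gm43809 overlaps Mrpl33 on the same strand.

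**Figure D4:**
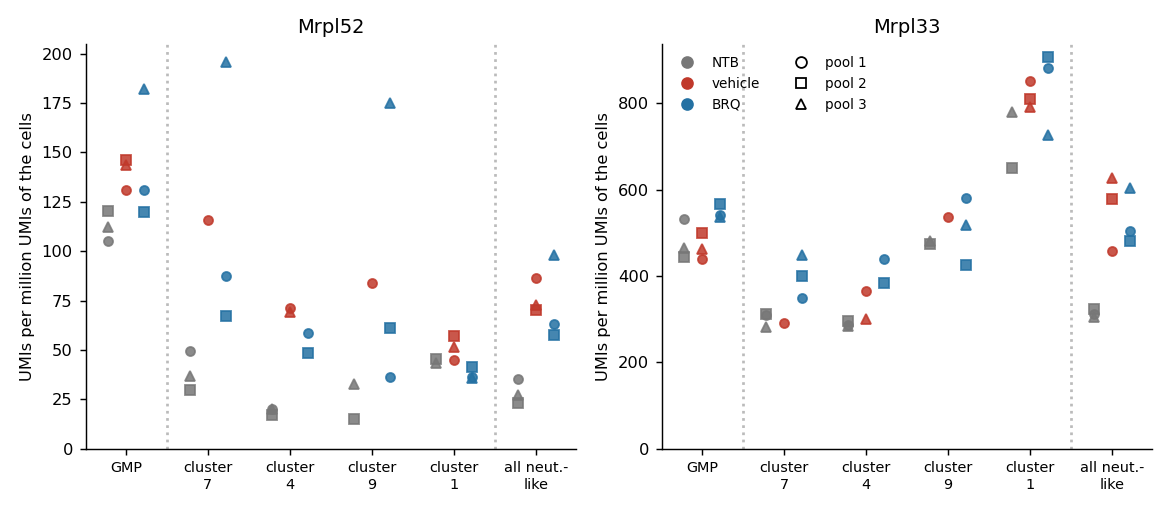
CPM without TMM factors of Mrpl52 (left) and Mrpl33 (right; vertical axis) in GMPs, in each neutrophil-like cluster and in all neutrophil-like cells (horizontal axis), 1 point per mouse with at least 20 cells, with color for the group and shape for the pool. In cluster 4 Mrpl52 is at 17.3 to 20.3 in NTB mice, below the other mice plotted there, and Mrpl33 is highest in cluster 1, at 650.6 to 906.1.

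Most of the genes were lower in neutrophil-like cells than in GMPs when compared within the same 9 mice. Mrps2, Mrps6 and Mrps27 had enough counts for this test only through GMPs. Of the other 75 genes, 70 were called lower (93.3%, against 34.7% of the 8145 genes with enough counts in both classes, or 37.8% of all 8686 genes tested), and the median log2 difference was -1.07. Mrps28 was lowest relative to GMPs (-2.87), from a median of 97.9 CPM over the mice (75.7 to 124) to 14.8 (7.21 to 21.4). Mrpl12 (-2.38), Mrps5 (-2.31), Mrpl38 (-2.28), Mrps18b (-2.28) and Mrpl11 (-2.15) followed, each lower in neutrophil-like cells of 9 of 9 mice. Among those called with the smallest change were Mrpl57 (-0.45), Mrpl24 (-0.41), Mrpl43 (-0.35), Mrps21 (-0.34), Mrps18c (-0.34) and Mrpl40 (-0.27). Mrps36 (-1.72), Mrps30 (-1.19), Mrps18a (-1.14), Mrpl58 (-1.11) and Mrps12 (-1.07) lay between. Not called were Mrps35, Mrpl14, Mrpl45, Mrpl10 and Mrpl33. Mrpl33 was at a median of 549.9 CPM (332.1 to 736.7) in neutrophil-like cells and 420.4 (409.3 to 513.6) in GMPs, a difference of 0.22. Mrpl10 was at 0.07, and at -0.31 with library size alone, where it was called lower.

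HSC/MPP-like cells were compared with GMPs in the 8 mice with at least 20 cells of both, since vehicle replicate 2 had 11. There 67 of the 78 genes were lower (85.9%, against 36.5% of 9539 genes tested) and 3 higher (3.85%, against 37.6%), with a median of -0.72. With library size alone 41 were lower and 14 higher, with a median of -0.21, where 1604 of all genes in this comparison (HSC/MPP-like vs GMP, 8 mice) were called lower and 6221 higher, with a median of 0.53. Mrpl51 (-1.66), Mrps14 (-1.53) and Mrpl20 (-1.53) were lowest relative to GMPs, and Mrpl51 was at 91.0 to 145 CPM in HSC/MPP-like cells and 355 to 459 in GMPs. Mrpl52 (0.32), Mrpl38 (0.32) and Mrps6 (0.23) were higher. Mrpl52 was at 181 to 218 CPM in HSC/MPP-like cells and 135 to 189 in GMPs and was higher in 8 of 8 mice. These values are shares of the RNA counted in a class, so fewer transcripts of a gene and more of other transcripts cannot be told apart.

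**Figure D5:**
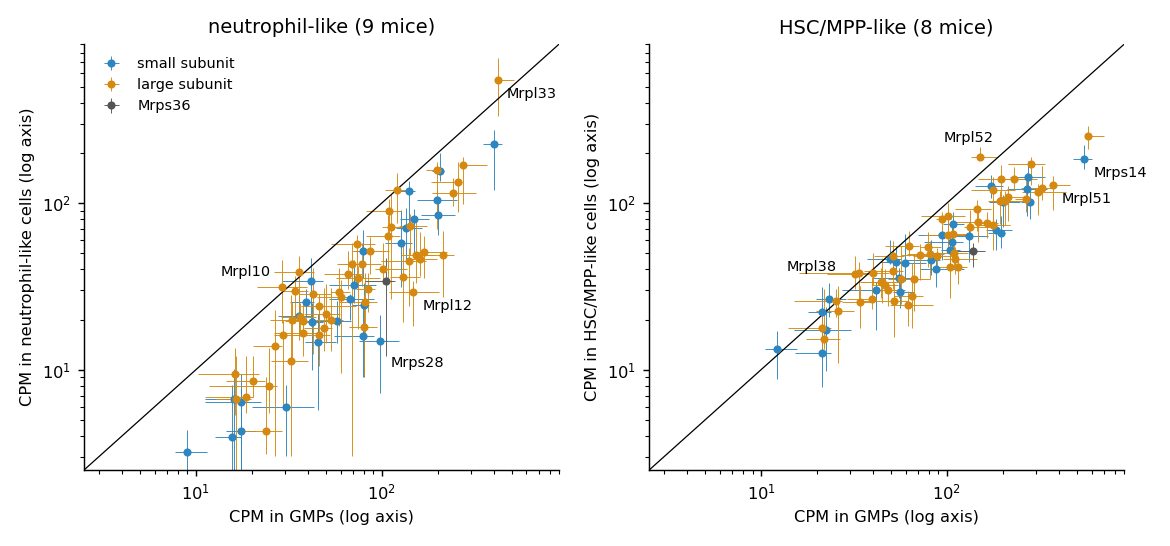
CPM of each gene in neutrophil-like cells (left, 9 mice) or HSC/MPP-like cells (right, 8 mice) on the vertical log axis against GMPs of the same mice on the horizontal log axis, with points at the median, bars from the lowest to the highest mouse and color for the subunit. Most points lie below the line of equal level, and on the left Mrpl33 lies above it.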

How the data were processed

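Single-cell libraries (10x Genomics 3' v3.1) of c-Kit+ bone marrow were aligned by the authors to mm10 with Cell Ranger 6.0.0, per the submitters' processing notes. The deposited matrices hold raw UMI counts per gene and hashtag, and 3 mice share each pool. Here cells were assigned to mice with HTODemux (Seurat 5.3.0, positive quantile 0.99) and kept at 500 to 7500 detected genes and at most 15% mitochondrial UMIs. The study words the limits as transcripts, so they were also applied to UMIs. Doublets by hashtag were removed, and Scrublet was an alternative. Clusters (scanpy 1.11.5, 2000 variable genes, 30 components, resolution 0.8) were built without the 78 genes and named from marker lists, so names may differ from those of the study.

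Counts were summed per mouse and class and fitted in 9 mice with edgeR 4.0.16 (quasi-likelihood test, TMM, filterByExpr, R 4.3.3). Benjamini-Hochberg adjustment was over all genes, and a gene was called at an adjusted p under 0.05. Rose and fell refer to called genes, SE is the standard error of a log2 fold change, and CPM values carry TMM scaling. DESeq2 1.42.0, other scalings, cell choices and leaving out each mouse were alternatives. A replicate number is a shared lane per the labels, so it pairs mice. In GMPs the median correlation of deviations was 0.09 within a pool (9 pairs, lowest -0.02) and -0.05 between pools (18 pairs). The fit without the block is the reported one. With 3 mice a group, in simulated GMP counts for vehicle against NTB (10191 genes), the fit called 6% of genes changed 1.25-fold, 25.4% at 1.5-fold and 71.2% at 2-fold, with 4 false calls. The changed genes were drawn at random from all genes tested, with the spread of the fitted trend. Their levels and spread differ from those of the members, so these shares do not apply to the members.

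The genes and lists were chosen with earlier results of these data known. Genes named are, in each GMP comparison and in neutrophil-like cells against GMPs, the 6 largest and 6 smallest called log2 fold changes, any called against the majority, 10 genes named always (Mrps18a, Mrps18b, Mrps18c, Mrpl10, Mrpl11, Mrpl12, Mrps12, Mrpl58, Mrps30 and Mrps36), the extremes of the other gene lists and, in other classes, the 2 called with the largest change each way. Further genes were named after their values were seen where a count was small. The comparison of HSC/MPP-like cells in 8 mice and the split of neutrophil-like clusters were added after seeing the data.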

Additional observations from a re-analysis of the deposited data

Results flagged for a closer look

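A test of whether a change between groups differed between cell classes (edgeR, 1 fit over both classes) called 8 differences among the 78 genes. No share of the genes exceeded that of all genes: 5 of 78 against 9.88% for neutrophil-like cells and vehicle against NTB, 2 of 78 against 3.35% for BRQ against NTB, and 1 of 78 against 1.57% for monocyte/MDP-like cells and BRQ against NTB. For vehicle against NTB, the log2 change in neutrophil-like cells exceeded that in GMPs by 1.22 for Mrpl52 (SE 0.23, adjusted p = 0.00262), and it was called without each mouse in 8 of 9 fits. Over neutrophil-like clusters other than cluster 1 this difference was 1.73 (adjusted p = 3.71e-09). For Mrpl33 the difference was 0.82 (SE 0.19, adjusted p = 0.0107) and 0.23 over the other clusters (adjusted p = 0.556), and it was called in 6 of 9 fits that left out a mouse. The difference was below zero for Mrps35 (-0.91, adjusted p = 0.0477), Mrps26 (-0.85, adjusted p = 0.0484) and Mrpl51 (-0.75, adjusted p = 0.0451). Their log2 changes were -0.63, -0.58 and -0.50 in neutrophil-like cells, none called without the block, and 0.34, 0.34 and 0.31 in GMPs, where Mrps26 and Mrpl51 were called. With library size alone the differences of Mrps26 and Mrpl51 were not called (adjusted p = 0.0618 for both). Over the other clusters these 3 were at -0.32, -0.41 and -0.07, none called, and they were called in 3, 4 and 4 of 9 fits that left out a mouse.

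For BRQ against NTB, the difference was 1.22 for Mrpl52 (SE 0.22, adjusted p = 0.00633) and 1.56 over the other clusters (adjusted p = 1.01e-09), called in 7 of 9 fits that left out a mouse (adjusted p up to 0.127). That of Mrpl33 was 0.71 (SE 0.19, adjusted p = 0.0422), and with library size alone it was not called (adjusted p = 0.107). It was called in 3 of 9 fits that left out a mouse (adjusted p up to 0.291), and over the other clusters it was 0.37 (adjusted p = 0.0683). For Mrpl24 the log2 change in monocyte/MDP-like cells (0.12, not called) minus that in GMPs (-0.48) was 0.58 (SE 0.14, adjusted p = 0.00579), called in 8 of 9 fits. In monocyte/MDP-like cells Mrpl24 was at 69.06, 76.00 and 83.94 CPM in NTB mice and 89.05, 87.90 and 76.24 in BRQ mice, which overlapped.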

How the results depend on the processing

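The members' median between Veh-GMPs and NTB-GMPs stayed above zero under every alternative run, while the number of calls moved. Of the 78 genes, 31 were called higher in Veh-GMPs over NTB-GMPs as reported, and 19 with library size alone, 54 with an Ms4a3 limit of 2.5, 63 in all cells of GMP-like clusters, 3 and 10 in GMPs below and above the median UMI count, 16 in the largest cluster and 0 with limits read as UMIs, where 53 could be tested. In BRQ-GMPs against Veh-GMPs, 17 of the 78 were called lower as reported, and 3 with library size alone, 10 with calls from tag ratios, 5 below the median UMI count, 10 in the largest cluster and 0 with limits read as UMIs. The median of the 78 turned to 0.048 with library size alone, and with limits read as UMIs Mrpl20 (0.103), Mrpl36 (0.023), Mrpl53 (0.032), Mrps15 (0.064) and Mrps36 (0.026) turned positive. With these limits NTB replicate 1 held 18 GMPs and vehicle replicates 2 and 3 held 8 and 16. These are too few to read the signs or the 0 calls as a change in the result. In BRQ-GMPs against NTB-GMPs, 6 of the 78 were called higher as reported, and 28 with library size alone, 22 with the Ms4a3 limit of 2.5, 34 in all cells of GMP-like clusters, 1 and 2 below and above the median UMI count, 1 in the largest cluster and 0 with limits read as UMIs. The cause was not tested. The share of all genes called in these alternative fits is not given beside the counts. Such shares differ with the cells taken, at 6.63% in GMPs and 11.8% in GMP-like cells below the limit for vehicle over NTB. The counts are therefore not results about the members alone.

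With the pool as a replicate block, 40 genes were called higher in Veh-GMPs over NTB-GMPs, 25 lower and Mrpl19 higher in BRQ-GMPs against Veh-GMPs, and 12 higher and Mrpl24 lower in BRQ-GMPs against NTB-GMPs. The shares of all genes in the text are those of the fit without the block. In monocyte/MDP-like cells the block gave 6 lower in BRQ than vehicle and 5 higher in BRQ than NTB, and RLE size factors gave 5 for the former. The block changed the calls in neutrophil-like cells as given in the text.

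In neutrophil-like cells, the 4 calls of vehicle over NTB became 2 with no filter on low counts, 7 with limits read as UMIs, 1 in the largest cluster and 2 in the other clusters, where medians turned to 0.22 and 0.25. For BRQ against vehicle, limits read as UMIs and the largest cluster gave 1 call each, and the median of 0.01 turned to -0.042 without Scrublet doublets, -0.02 with limits read as UMIs, -0.27 in the largest cluster and -0.13 in the others. For BRQ over NTB there were 1 with tag ratios, 4 with limits read as UMIs and 0 in the largest cluster, where Mrpl52 was at -0.20, and the median was 0.20 in the other clusters. Below the Ms4a3 limit, library size alone, an alternative added after seeing the data, turned the median of BRQ against vehicle to 0.056, with 0 called lower, and gave 49 calls for vehicle over NTB and 60 for BRQ over NTB, where 1316 and 2567 of all 10670 genes in the class (GMP-like below limit) were called higher. In monocyte/MDP-like cells it gave 9 for vehicle over NTB, 0 for BRQ below vehicle and 7 for BRQ over NTB. The counts over all genes are not given here for that class, so these cannot be set against them. Taking for neutrophil-like cells against GMPs only the genes with enough counts in both classes was chosen after seeing the data. With library size alone, Mrpl10 was at -0.31 in neutrophil-like cells against GMPs and 41 genes were lower in HSC/MPP-like cells.

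Leaving out 1 mouse at a time gave 11 to 36, 6 to 19 and 1 to 8 calls in GMPs for vehicle over NTB, BRQ below vehicle and BRQ over NTB. The same ranges were 27 to 52, 2 to 9 and 15 to 35 below the Ms4a3 limit, and 1 to 14, 0 to 6 and 0 to 5 in monocyte/MDP-like cells. In neutrophil-like cells they were 1 to 5 for vehicle over NTB and 0 to 2 for BRQ over NTB. There the median ran from -0.50 to -0.02 for vehicle against NTB, from -0.15 to 0.35 for BRQ against vehicle and from -0.23 to 0.05 for BRQ against NTB. For HSC/MPP-like cells the planned fit in 9 mice, DESeq2, no low-count filter, tag ratios, Scrublet and no mouse block were not run. The NTB mice held 88 to 177 GMPs and vehicle replicate 2 held 95, which limits the precision there.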
